A study of Mus musculus with 13 samples.

Results

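Accessible chromatin was compared between the distal forelimb (DFL), the part of the limb bud that forms the hand, and the proximal forelimb (PFL), which forms the segments of the arm, in wild-type mouse embryos at E12.5. Of 71755 regions of the genome found in at least 1 of 4 libraries, 6247 (8.71%) were present in both DFL libraries and in neither PFL library, and these are called DFL-specific. Another 5939 regions (8.28%) were present in both PFL libraries and in neither DFL library, and these are called PFL-specific. Presence meant that a region lay among the 50000 strongest of a library on chromosomes 1 to 19, ranked by the −log10 q-value of the peak caller and then by its fold over local background. Regions that overlapped by at least 1 bp between libraries were joined. A further 31838 regions were in all 4 lists and are called common regions. These counts follow from the rule itself and carry no test.

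The assay was ATAC-seq, in which the Tn5 transposase cuts open chromatin and leaves sequencing adapters there, and each library was made from 50000 dissociated cells. Embryos were of the B6CBAF1 background and untreated, and per the study's methods every library was a separate pool of tissue from several embryos, so that the spread between replicates is a spread between 2 pools. Libraries that did not enter the choice of regions served for comparison. They were 2 DFL and 2 PFL libraries of allele 542, in which a copy of the HoxD limb enhancer II1 with a lacZ reporter sits in the regulatory domain telomeric to HoxD, an additional wild-type (wt) DFL library from an earlier study, and 2 wt forebrain (FB) libraries.

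Per library, 102218 to 115512 regions were called on these chromosomes, and the total of tags (Tn5 cut sites) was estimated at 44.0 to 54.5 M (mega). The DFL libraries were at either end of this range, at 54.5 and 44.0 M, and the PFL libraries lay between them, at 48.8 and 52.7 M. The last region kept in DFL replicate 2 had a −log10 q-value of 10.95992 and the first one left out had 10.95903. The corresponding values were 10.97679 and 10.97645 in PFL replicate 2, while in DFL replicate 1 and PFL replicate 1 the values on either side of the limit were equal, at 12.73381 and 11.34898. The dissected tissue holds all cell types of the bud. A lower signal in bulk tissue can stem from fewer cells of a type or from less open chromatin per cell, and these cannot be told apart here.

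Along the growing limb, cells near the body express the TALE homeodomain factors MEIS1 and MEIS2, cells of the middle segments express Hoxa11 and Hoxd11, and cells of the hand plate express Hoxa13 and Hoxd13. Muscle precursors enter the bud from the somites and express Pax3, then Myf5 and Myod1. Genes that pattern the limb are mostly controlled by enhancers, stretches of open chromatin that bind transcription factors and can lie far from the gene they act on. The region's nearest protein-coding gene start is used below as a name for the region and does not show which gene it acts on.

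The sequences of the strongest specific regions, and of regions that recur in the results, are given here as 200 bp centred on the summit, on the plus strand of GRCm38 (mm10). In DFL-specific windows capitals mark the HOX13 motif (CAATAAA or CCATAAA) and the homeodomain core TAATTA, and in PFL-specific windows they mark the E-box CAGCTG and the TALE motif TGACAG, in either orientation. Each set was searched for its own motifs only. The 3 strongest DFL-specific regions come first, since they differ most from background, followed by the region over II1 and the region nearest Lnpk in the same regulatory landscape of HoxD. The regions nearest Tfap2b and Gli3 stand for the genes with the most 1-sided sets of DFL-specific regions and were chosen for display after their values were seen.
Flrt2 region, chr12:94575090-94575289: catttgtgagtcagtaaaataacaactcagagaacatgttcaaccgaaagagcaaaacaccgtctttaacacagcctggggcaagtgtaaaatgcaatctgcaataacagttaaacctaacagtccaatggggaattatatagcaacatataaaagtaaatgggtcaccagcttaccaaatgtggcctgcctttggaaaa
Klf7 region, chr1:64164668-64164867: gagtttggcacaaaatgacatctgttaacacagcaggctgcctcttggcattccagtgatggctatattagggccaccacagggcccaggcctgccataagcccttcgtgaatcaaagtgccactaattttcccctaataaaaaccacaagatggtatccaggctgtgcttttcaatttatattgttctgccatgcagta
Erbb4 region, chr1:68674726-68674925: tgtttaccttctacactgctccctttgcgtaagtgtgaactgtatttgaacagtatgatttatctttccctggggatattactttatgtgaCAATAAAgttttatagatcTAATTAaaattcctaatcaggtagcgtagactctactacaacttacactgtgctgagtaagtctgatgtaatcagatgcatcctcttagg
II1 region, chr2:74075705-74075904: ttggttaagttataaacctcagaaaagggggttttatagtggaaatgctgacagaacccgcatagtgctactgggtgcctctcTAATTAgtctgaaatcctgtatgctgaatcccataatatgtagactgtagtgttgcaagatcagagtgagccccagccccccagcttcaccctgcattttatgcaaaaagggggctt
Lnpk region, chr2:74272711-74272910: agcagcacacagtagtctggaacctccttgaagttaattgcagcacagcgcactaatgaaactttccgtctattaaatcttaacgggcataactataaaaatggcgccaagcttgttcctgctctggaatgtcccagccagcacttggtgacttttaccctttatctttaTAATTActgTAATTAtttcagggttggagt
Tfap2b region, chr1:19647942-19648141: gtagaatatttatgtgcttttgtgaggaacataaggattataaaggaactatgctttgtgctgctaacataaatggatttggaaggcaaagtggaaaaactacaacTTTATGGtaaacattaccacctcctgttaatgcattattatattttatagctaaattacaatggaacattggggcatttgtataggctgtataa
Gli3 region, chr13:15102813-15103012: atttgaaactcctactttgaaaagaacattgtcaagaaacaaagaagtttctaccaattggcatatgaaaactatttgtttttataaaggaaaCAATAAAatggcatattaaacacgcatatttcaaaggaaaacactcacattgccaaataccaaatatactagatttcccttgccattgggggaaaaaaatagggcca
The 3 strongest PFL-specific regions follow, with the strongest region nearest Myod1, which was also chosen for display after its values were seen.
Lima1 region, chr15:99848047-99848246: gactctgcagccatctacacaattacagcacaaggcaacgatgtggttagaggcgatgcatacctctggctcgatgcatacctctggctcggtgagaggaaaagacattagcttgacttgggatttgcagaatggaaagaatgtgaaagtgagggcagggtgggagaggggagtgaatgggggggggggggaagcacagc
Brinp3 region, chr1:146211830-146212029: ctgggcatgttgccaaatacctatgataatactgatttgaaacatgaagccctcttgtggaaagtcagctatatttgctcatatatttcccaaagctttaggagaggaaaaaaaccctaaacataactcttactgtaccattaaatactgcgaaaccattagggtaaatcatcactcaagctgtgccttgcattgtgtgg
Cxcl15 region, chr5:90819914-90820113: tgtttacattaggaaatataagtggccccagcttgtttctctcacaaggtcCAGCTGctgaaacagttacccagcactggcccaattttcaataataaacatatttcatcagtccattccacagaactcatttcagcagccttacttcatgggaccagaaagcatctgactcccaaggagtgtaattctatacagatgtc
Myod1 region, chr7:46317055-46317254: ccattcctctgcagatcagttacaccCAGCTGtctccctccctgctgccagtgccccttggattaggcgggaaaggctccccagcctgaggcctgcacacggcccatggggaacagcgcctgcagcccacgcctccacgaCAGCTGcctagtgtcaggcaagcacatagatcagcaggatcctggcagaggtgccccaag
None of the motifs was found in the Flrt2, Klf7, Lima1 and Brinp3 windows. The Erbb4 window held both DFL motifs, the Tfap2b and Gli3 windows held the HOX13 motif, the II1 window held the homeodomain core, and the Lnpk and Myod1 windows held 2 copies each of the homeodomain core and the E-box. The paper reports several HOX13 motifs within II1, found by motif discovery. A window without the exact letters searched here can thus still hold a HOX13 site.

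The strongest DFL-specific region, in fold over local background, was intergenic on chr12:94574840-94575742 and nearest to Flrt2, a cell adhesion and guidance protein, at -1117036 bp from its start (negative distances lie upstream). Its fold was 13.0 and 17.0 in the DFL libraries. In PFL replicate 1 a region was called there at a fold of 2.25, below the 50000 strongest, and in PFL replicate 2 none was called. The region on chr1:64164348-64165355, upstream of the Krüppel-like factor gene Klf7, had folds of 14.0 and 14.2 in DFL against 2.57 and 2.86 in PFL. Within an intron of Erbb4, a receptor for neuregulins, the region on chr1:68674495-68675427 had 14.4 and 13.6 in DFL against 4.18 and 3.32 in PFL. Each of these 3 regions was also in both 542 DFL lists and in no 542 PFL list, and none was called in either forebrain library.

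Of the PFL-specific regions, the strongest lay in an intron of Lima1, which encodes an actin-binding protein, on chr15:99847919-99848450. Its fold was 12.7 and 13.4 in PFL against 3.96 and 4.90 in DFL. The region on chr1:146211466-146212304, nearest to the neural gene Brinp3, had 15.4 and 10.6 in PFL, and was called in DFL replicate 1 only, at 4.25. The region on chr5:90819631-90820568, nearest to the chemokine gene Cxcl15, had 13.1 and 12.4 in PFL against 2.78 and 3.68 in DFL. The Brinp3 and Cxcl15 regions were in both 542 PFL lists and in no 542 DFL list, while the Lima1 region was not, with folds of 5.16 and 5.66 in 542 DFL against 11.6 and 8.79 in 542 PFL. The region nearest Dnah5, at 768096 bp from its start, had 11.3 and 11.9 in PFL and no region of any rank in either DFL library.

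**Figure D1:**
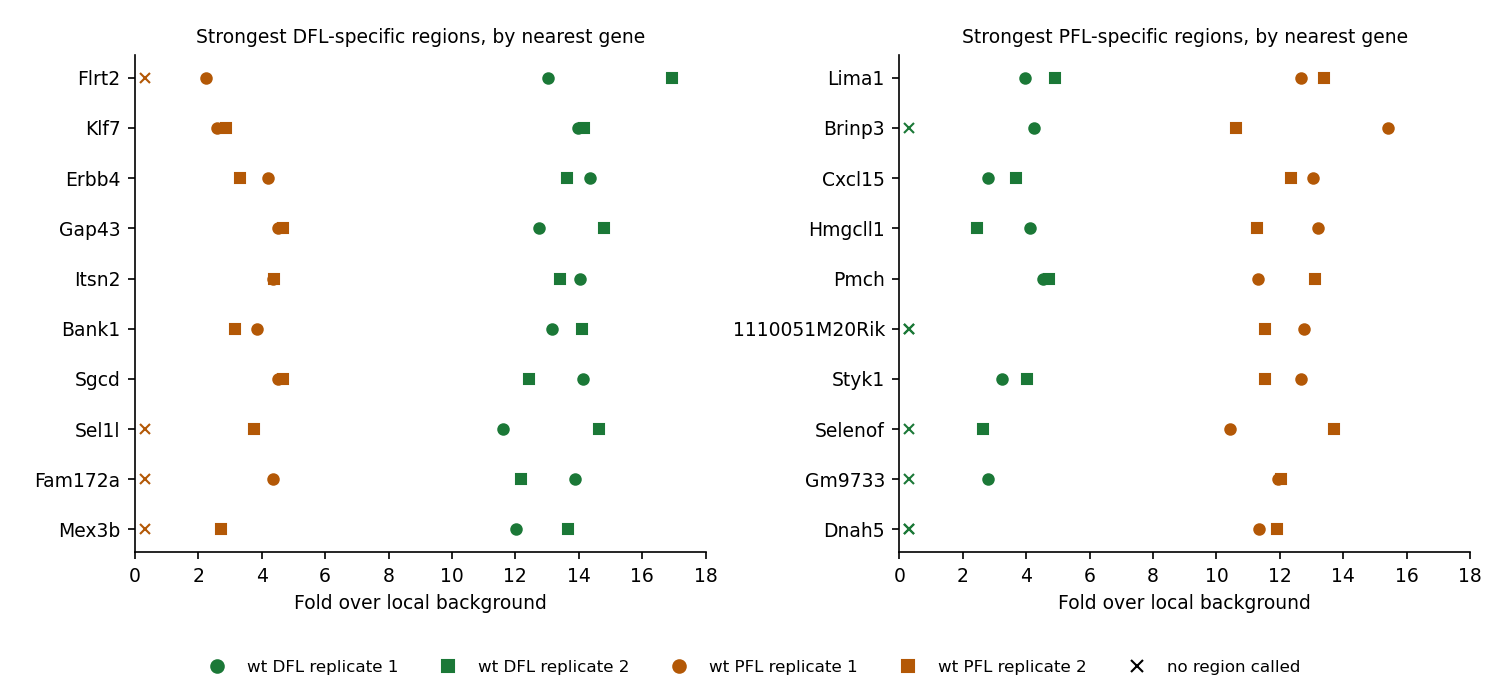
Fold over local background (x axis) in the 4 wt limb libraries for the 10 DFL-specific (left) and 10 PFL-specific (right) regions with the highest mean fold, named by nearest gene. Circles are replicate 1 and squares replicate 2, in green for DFL and brown for PFL, and a cross marks a library in which no region of any rank was called. Flrt2 runs from 13.0 to 17.0 in DFL, and the values of the other tissue lie under 5 throughout.

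All 20 plotted regions were chosen for their fold, and the values describe them without a test. Most members were weaker, with a median fold of 6.18 for DFL-specific regions in DFL and 5.88 for PFL-specific regions in PFL. Common regions had a median of 9.14 in DFL and 8.64 in PFL. Absence from a list of 50000 did not mean closed chromatin. For 3053 DFL-specific regions (48.9%) a weaker region was called in both PFL libraries, with a median fold of 3.64 there against 6.27 in DFL. For 3001 PFL-specific regions (50.5%) a weaker one was called in both DFL libraries, at a median of 3.77 against 5.92. No region of any rank was called in the other tissue for 1690 DFL-specific (27.1%) and 1381 PFL-specific regions (23.3%).

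Specific regions lay far from gene starts. Within 1 kb of a protein-coding start were 68 DFL-specific regions (1.09%), 143 PFL-specific regions (2.41%) and 10659 common regions (33.5%). The Wilson intervals at 95% were 0.860 to 1.38% for DFL and 2.05 to 2.83% for PFL, and these intervals, like those below, cover counting error only. Introns held 48.2% of DFL-specific and 48.3% of PFL-specific regions, and intergenic sequence held 47.0% and 45.1%. The median distance to the nearest start was 93.8 kb for DFL-specific and 81.0 kb for PFL-specific regions. It was 17.0 kb for common regions, and 52.3 kb for common regions that were over 1 kb from a coding start. More than 500 kb from any coding start lay 601 DFL-specific regions (9.62%), 430 PFL-specific regions (7.24%) and 981 common regions (3.08%).

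**Figure D2:**
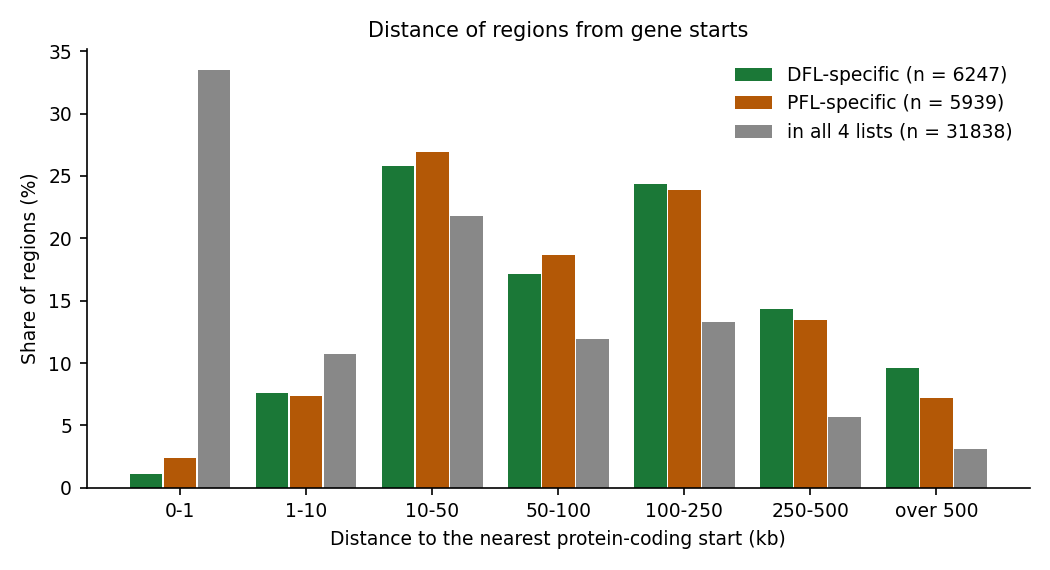
Share of regions (y axis, %) by distance to the nearest protein-coding start (x axis, kb) for DFL-specific, PFL-specific and common regions. Of the common regions (grey) 33.5% lie within 1 kb, against 1.09% of DFL-specific (green) and 2.41% of PFL-specific regions (brown).

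Beyond 1 kb the DFL and PFL bars follow each other, from 25.8% and 26.96% at 10 to 50 kb to 14.3% and 13.4% at 250 to 500 kb. The median width of the joined regions was 689 bp for DFL-specific, 672 bp for PFL-specific and 947 bp for common regions. A common region joins the intervals of 4 libraries and a specific one those of 2, so these widths differ in part by construction. The GC content of specific regions, in 200 bp on the summit, had a median of 45.5% in DFL and 46.5% in PFL against 50.5% for common regions over 1 kb from a start. Windows with at least 50% repeat sequence made up 2.24% of DFL-specific regions, 0.724% of PFL-specific regions and 0.594% of common regions. Of DFL-specific regions whose nearest specific neighbour lay within 50 kb, 54.9% had a DFL-specific neighbour, where 51.3% of all specific regions were DFL-specific. For PFL-specific regions the share was 53.6% against 48.7%.

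The 542 libraries gave the same measure in samples that the rule had not used. Chromosome 2 from 75 Mb was left out, since the 542 libraries were mapped to a mutant genome whose coordinates differ there, which left 5945 DFL-specific and 5692 PFL-specific regions. Of the DFL-specific regions, 70.8% and 74.8% were in the lists of the 542 DFL libraries, and 15.3% and 17.5% in those of the 542 PFL libraries. The difference of 56.37 percentage points (72.8% ± 2.81 against 16.4% ± 1.5, SD, n = 2 libraries each) was larger than the spread between replicates. An exact permutation test over the 542 libraries, two-sided, gave p = 0.33, which is the lowest value this design of 2 against 2 can reach. Of the PFL-specific regions, 63.4% and 59.0% were in the 542 PFL lists and 11.3% and 10.4% in the 542 DFL lists. This difference of 50.38 points (61.2% ± 3.11 against 10.9% ± 0.658, SD, n = 2 libraries each) also exceeded the spread, and the same exact permutation test gave p = 0.33.

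The full pattern, both 542 libraries of the same tissue and neither of the other, was met by 2688 DFL-specific regions (45.2%) and 2170 PFL-specific regions (38.1%). Over all 68358 regions of the wt limb lists with coordinates shared by both genomes, 8.03% met the DFL pattern in 542 and 7.66% the PFL pattern. These include the specific regions themselves, and regions found only in 542 were not counted. The share of specific regions that met the full pattern rose with the fold in wt libraries. Divided into 4 equal groups by fold, it was 34.7% in the lowest and 61.9% in the highest group of DFL-specific regions, and 24.2% and 59.7% for PFL-specific regions. In the additional wt DFL library, which at 78.0 M tags was the deepest, 72.4% of DFL-specific and 18.3% of PFL-specific regions were in the list. In the forebrain, 20.3% and 20.2% of DFL-specific regions were in the lists of the 2 libraries, against 13.2% in each for PFL-specific and 70.2% and 69.5% for common regions.

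**Figure D3:**
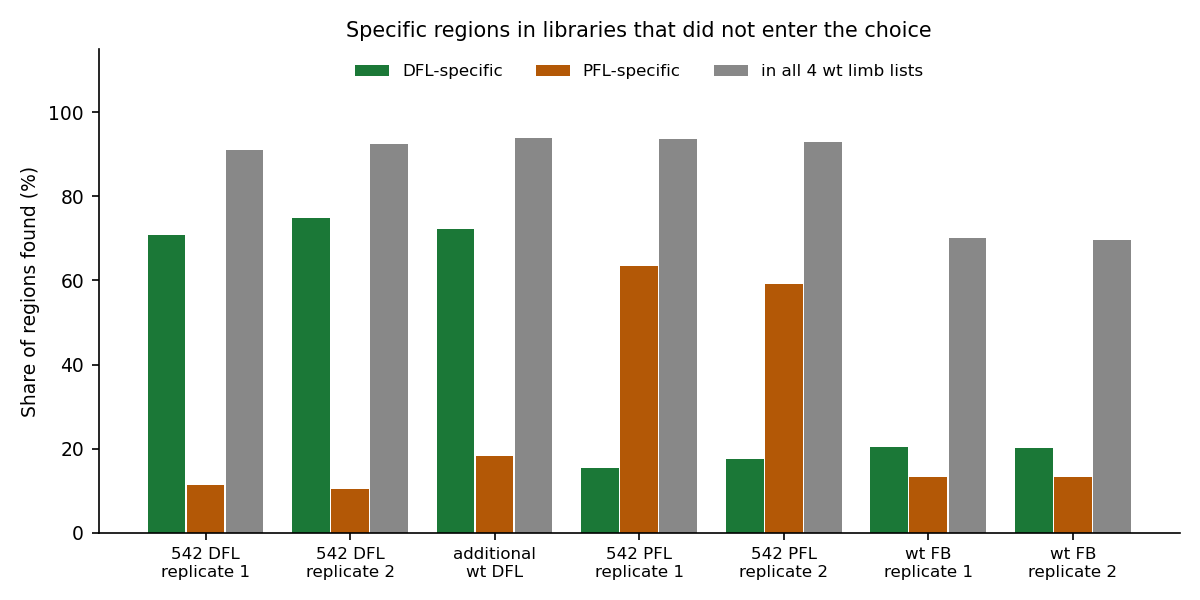
Share of the wt DFL-specific, PFL-specific and common regions (y axis, %) found among the 50000 strongest regions of 7 libraries that did not enter the choice (x axis). DFL-specific regions reach 70.8% to 74.8% in the DFL libraries and 15.3% to 17.5% in the 542 PFL libraries, and PFL-specific regions reach 59.0% to 63.4% in the 542 PFL libraries.

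Common regions stay between 90.9% and 93.9% in these limb libraries of either tissue.

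The motifs in 200 bp on the summit differed between both kinds of region. HOX13 proteins, the most distal of the HOX factors, bind the motif CAATAAA or CCATAAA. It was present in 19.8% of DFL-specific, 8.49% of PFL-specific and 8.62% of common regions over 1 kb from a start, against 9.07% of all 71755 regions. The homeodomain core TAATTA, which is bound by many homeodomain factors, was present in 15.4% of DFL-specific, 3.25% of PFL-specific and 4.87% of these common regions (5.78% of all). At least 1 of these motifs was found in 2015 DFL-specific regions (32.3%), against 11.4% of PFL-specific and 14.0% of all regions. Both were found in 2.93% of DFL-specific and 0.370% of PFL-specific regions.

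In the other direction, the E-box CAGCTG, the form bound by myogenic and related basic helix-loop-helix factors, was present in 29.7% of PFL-specific, 16.0% of DFL-specific and 20.6% of common regions over 1 kb from a start (19.9% of all). The TALE motif TGACAG, which MEIS proteins bind, was present in 18.6% of PFL-specific, 10.6% of DFL-specific and 13.0% of these common regions (13.4% of all). The RUNX motif TGTGGT, bound by regulators of cartilage and bone maturation, was found in 19.9% of PFL-specific against 13.7% of DFL-specific regions (14.3% of all). Smaller differences towards PFL were seen for TEAD (ACATTCC), at 8.77% against 6.50%, for a second E-box (CATATG), at 7.38% against 5.33%, and for HOX-PBX (TGATTNAT), at 4.61% against 3.23%. The SOX motif ACAATG was at 10.1% in DFL-specific and 8.69% in PFL-specific regions. AP-1 (TGANTCA) was at 7.01% and 7.86%, and the motif AGATAA of zinc finger GATA factors at 4.82% and 5.34%. The CTCF core AGGTGGCAG was at 0.864% and 0.825%, below the 2.59% of common regions over 1 kb from a start.

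**Figure D4:**
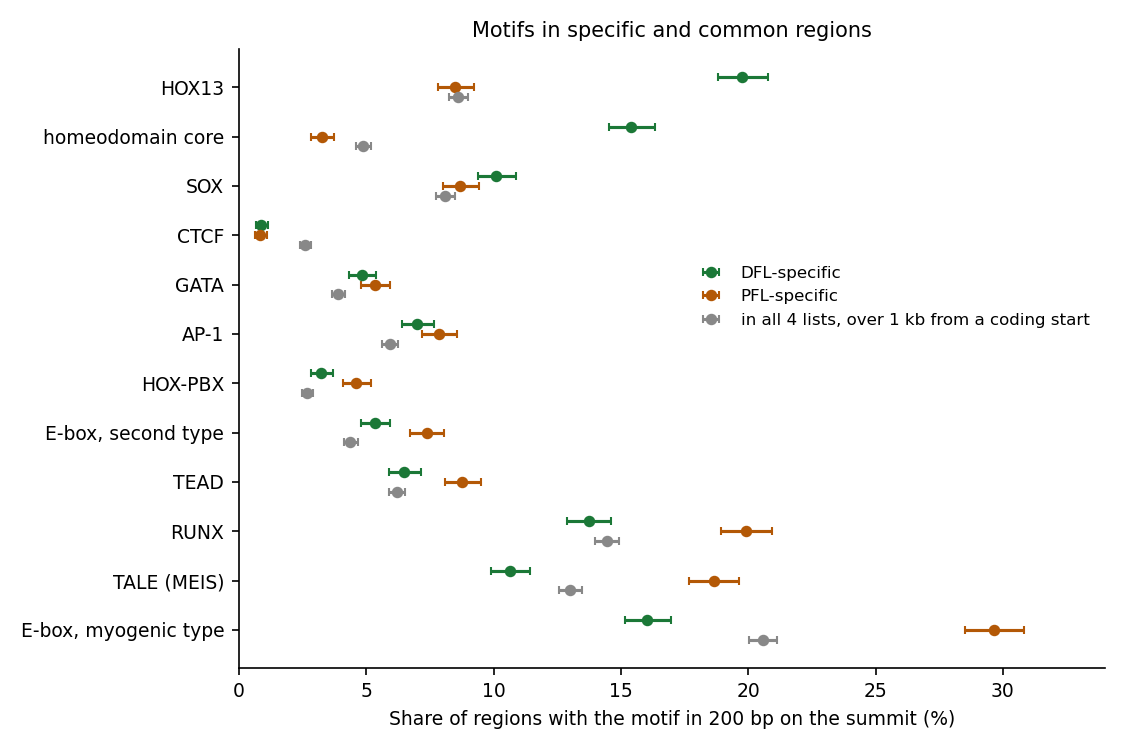
Share of regions with a motif in 200 bp on the summit (x axis, %) for 12 motifs, in DFL-specific, PFL-specific and common regions over 1 kb from a coding start. Bars are Wilson intervals at 95%, which cover counting error only. HOX13 stands at 19.8% in DFL-specific against 8.49% in PFL-specific regions, and the myogenic type of E-box at 29.7% in PFL-specific against 16.0% in DFL-specific regions.

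In the plot of motif shares the DFL and PFL intervals overlap for SOX, CTCF, GATA and AP-1, and for none of the other 8 motifs. Matches on both strands were counted and motifs could overlap. A match is a run of letters and no evidence of binding. In windows of 100 bp none of the 12 motifs changed which of the 2 kinds of region held it more often. GC content, which differed between the kinds, moved with these shares. Among windows of 45 to 50% GC the HOX13 motif was in 19.5% of DFL-specific, 7.54% of PFL-specific and 10.9% of common regions, and CAGCTG was in 16.8%, 29.5% and 20.1%. In each 5-point band from 30 to 60% GC, HOX13 and TAATTA were more frequent in DFL-specific and CAGCTG and TGACAG in PFL-specific regions.

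DFL-specific regions with a HOX13 motif held the same pattern in 542 in 53.2% of 1190 regions, and those without it in 43.2% of 4755. With the TAATTA core the share was 58.0% of 909 against 42.9% of 5036 without. The motifs parted in forebrain. Of DFL-specific regions with a HOX13 motif 7.90% were in both forebrain lists, against 20.2% without, while with TAATTA it was 26% against 16.3%. PFL-specific regions with CAGCTG held their pattern in 542 in 43.2% of 1693 regions and those without in 36.0% of 3999. For TGACAG the shares were 41.9% of 1053 and 37.3% of 4639. The HOX13 share of DFL-specific regions was 17.4% in the lowest and 23.6% in the highest of the 4 groups by fold.

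At HoxD, the domain centromeric to the cluster, which holds II1 and other digit enhancers, contained 7 DFL-specific and 3 PFL-specific regions among 36, counted from Atp5g3 to Evx2. Over all regions the shares were 8.71% DFL-specific and 8.28% PFL-specific, and the count for PFL was near that background here and in the domain on the other side. The II1 region, on chr2:74075155-74076242, had folds of 7.74 and 10.0 in DFL, and no region of any rank was called there in either PFL library. In 542 DFL it had 6.01 and 6.03, where reads within II1 have 2 origins in the mutant genome, and none was called in 542 PFL. A region nearest Lnpk, a gene within the domain, on chr2:74271760-74273046, behaved in the same way, with 8.24 and 8.42 in DFL, 6.82 and 8.56 in 542 DFL, and no call in any wt or 542 PFL library. A PFL-specific region lay close to it, on chr2:74264902-74265986, with 5.18 and 5.01 in PFL against 3.38 and 4.13 in DFL. The PFL-specific regions of this domain were all nearest to Lnpk, and 2 of the 3 held their pattern in 542.

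The domain telomeric to HoxD, from Mtx2 to Hnrnpa3, held 6 DFL-specific and 4 PFL-specific regions among 48. The strongest PFL-specific one, on chr2:74993551-74994378 and nearest to Mtx2, had 9.21 and 8.88 in PFL and 5.84 and 7.04 in 542 PFL, with no call of any rank in the wt or 542 DFL libraries. A DFL-specific region nearest Hnrnpa3, on chr2:75395522-75396404, had 8.26 and 8.85 in DFL against 4.67 and 4.18 in PFL. Within the cluster the DFL-specific region was the start of Hoxd12, with 4.51 and 4.99 in DFL against 3.34 and 2.71 in PFL. A region over the Evx2 gene, a homeobox gene beside Hoxd13, had 5.49 and 5.56 in DFL against 2.41 and 3.17 in PFL, and both were DFL-specific in 542 as well. For Hoxd12 that pattern rests on the rank in the lists alone, since its folds in 542 were 3.43 and 3.37 in DFL, where it was listed, against 3.79 and 3.48 in PFL, where it was not.

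The HoxA locus, whose interval was chosen after its values were seen, held 6 DFL-specific regions and 1 PFL-specific region among 30 on the side of Evx1, as far as Jazf1, to be read against the same background shares. The strongest was on chr6:52673266-52674366, nearest to Hibadh, with 9.89 and 8.56 in DFL and no call in PFL. Among the 16 regions of the cluster 1 was DFL-specific. It lay over an exon of Hoxa11, with 4.19 and 3.59 in DFL, none was called in PFL, and it did not hold its pattern in 542. No region nearest Hoxa13 or Hoxd13 was specific. The start of Hoxd13 was open in all 4 libraries at unequal folds, which are given with the common regions.

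Gene groups, of tissue markers and of the pathways that pattern the limb, were described by the regions nearest to their members. The lists were chosen with earlier results of these data known, so they give no independent check on the tissue labels. The lists overlap in some genes, and a share is to be read against 8.71% for DFL and 8.28% for PFL over all regions. The same counts in the 542 libraries, where the shares over all regions were 8.03% and 7.66%, are given beside them, DFL first. In 542 the regions on chromosome 2 beyond the limit given above were left out. Where the total of a list is smaller in 542, the wt and 542 counts cover unlike sets. The Hox genes of HoxA and HoxD with the Evx genes had 7 DFL-specific and 0 PFL-specific regions among 36, a direction they kept at 5 to 1 within 100 kb of the start, at 3 to 2 in lists of the 20000 strongest regions, and at 5 to 3 among 36 in 542. Of the 7, 4 were nearest to Evx1, where 2 held their pattern in 542, and 1 each to Evx2, Hoxa11 and Hoxd12. Most were thus nearest to Evx genes and not to Hox genes. The distal transcription factors had 37 DFL-specific regions among 187 (19.8%) and 15 PFL-specific (8.02%), and kept this direction at 31 to 7 and 15 to 3 under the same alternatives and at 32 to 9 among 183 in 542. Tfap2b, which encodes an AP-2 factor, had 8 DFL-specific and 0 PFL-specific regions among 19, and 6 of the 8 held their pattern in 542. The strongest, on chr1:19647523-19648777, had 8.42 and 9.88 in DFL against 3.38 and 2.26 in PFL.

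Others of the distal list pointed the same way. Lhx9, a LIM homeobox gene of the distal mesenchyme, had 4 and 0, the BMP-responsive homeobox gene Msx2 had 3 and 0, and the zinc finger gene Sall3 had 3 and 0. For each of these genes, 2 DFL-specific regions held their pattern in 542. Hand2, which sets the posterior side of the limb, had 4 and 3, and its strongest DFL-specific region, on chr8:57257423-57258503, had 8.28 and 8.62 in DFL against 3.22 and 2.71 in PFL. Against the list went Sall1 with 2 DFL-specific and 4 PFL-specific regions, Tbx3 with 1 and 3, Prdm1 with 2 and 3, and Tbx2 with 0 and 1. Of these PFL-specific regions, only 1 nearest Tbx3 held its pattern in 542.

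The proximal transcription factors did not lean towards PFL. They had 30 DFL-specific regions among 226 (13.3%) and 18 PFL-specific (7.96%). The direction towards DFL held at 16 to 10 within 100 kb and at 9 to 5 in the shorter lists. In 542 the counts were 18 and 19 among 185, which leave out the regions nearest Meis2, among others. The wt counts over these 185 regions are not given here, so the direction was not compared on equal sets. Meis1 had 6 DFL-specific and 3 PFL-specific regions among 34. Its strongest DFL-specific region, on chr11:19160106-19161002, had 7.18 and 11.2 in DFL, a call of 2.25 in PFL replicate 1 and none in PFL replicate 2. Its strongest PFL-specific region, on chr11:19433762-19434903, had 8.03 and 8.45 in PFL against 4.10 and 3.50 in DFL, and held its pattern in 542. Meis2 had 1 DFL-specific region, with 7.55 and 8.00 in DFL against 3.70 and 4.22 in PFL, and 2 PFL-specific regions, of which the stronger had 6.11 and 5.70 in PFL against 3.37 and 4.20 in DFL. Shox2, a homeobox gene needed for the proximal limb skeleton, had 2 DFL-specific regions and 0 PFL-specific ones, at 8.20 and 8.58 and at 6.15 and 8.40 in DFL. Neither of these held its pattern in 542. Irx3, Irx5 and Tbx15 had 3 and 0 each, of which 0, 1 and 2 held in 542, and Pax1, a gene of the shoulder girdle, had 0 and 3.

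Of the signalling pathways, the Bmp pathway had 32 DFL-specific regions among 286 (11.2%) and 12 PFL-specific (4.20%). This direction was kept at 26 to 16 within 100 kb and 11 to 6 in the shorter lists. In 542 the counts were 16 and 18 among 206, which leave out the regions nearest Bmp2 and Grem1, among others. The wt counts over these 206 regions are not given here, so the direction was not compared on equal sets. Bmp2, a ligand, had 6 DFL-specific and 0 PFL-specific regions, Gdf6, a ligand of forming joints, had 4 and 0, Nog, which encodes the antagonist Noggin, had 3 and 0, and Id2, a target, had 3 and 0. Of the DFL-specific regions nearest Gdf6, Nog and Id2, 1, 0 and 2 held their pattern in 542. The strongest Gdf6 region, on chr4:10155532-10156466, had 10.4 and 9.88 in DFL, with no call in PFL replicate 1 and 3.77 in PFL replicate 2. Bmpr1b, a receptor of cartilage condensations, had 6 and 4, and its strongest specific region was a PFL-specific one on chr3:141857004-141857741, with 10.9 and 9.06 in PFL, 3.22 in DFL replicate 1 and no call in DFL replicate 2. The antagonist Grem1 had 2 of each, with 8.30 and 7.07 in DFL in the stronger DFL-specific one.

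The Hedgehog pathway had 14 DFL-specific and 10 PFL-specific regions among 170, a direction that turned to 6 against 8 in the shorter lists and was kept at 18 to 11 in 542. Of the 14, 10 were nearest to Gli3, which encodes the repressor and activator that limits digit number, and 0 PFL-specific regions were nearest to it. They ran from -360322 bp upstream to 158401 bp into the gene, and 5 of the 10 held their pattern in 542. The strongest, on chr13:15102060-15103436, had 7.18 and 6.85 in DFL and 6.64 and 4.91 in 542 DFL, with no call in any wt or 542 PFL library.

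The Fgf pathway had 12 DFL-specific and 17 PFL-specific regions among 181, which turned to 12 and 10 within 100 kb, 9 and 4 in the shorter lists, and 16 and 11 among 174 in 542. The Fgf antagonist Spry2 made up 6 of the 17 and had 2 DFL-specific regions. Of these, 1 of the 6 and 0 of the 2 held their pattern in 542. The Wnt pathway had 25 and 38 among 335, which turned to 13 and 4 in the shorter lists and to 29 and 24 among 324 in 542. In this group the Wnt antagonist Dkk2 had 3 and 6, the receptor gene Fzd1 had 1 and 4, the ligand Wnt4 had 0 and 3, and Ror2, a receptor for Wnt5a, had 4 and 1. Those that held in 542 were 1 and 3 for Dkk2, 1 and 0 for Fzd1, 0 and 1 for Wnt4, and 4 and 0 for Ror2. The strongest specific region of Wnt5a was open in DFL, with 9.46 and 9.14 in DFL against 3.06 and 3.02 in PFL. The retinoic acid pathway had 16 and 11 among 125, which turned to 10 and 12 within 100 kb, 2 and 3 in the shorter lists, and 10 and 14 in 542. Rarb, a retinoic acid receptor gene, had 8 and 3, and its strongest specific region was open in PFL, with 7.56 and 12.4 in PFL against 2.78 and 4.90 in DFL. Cyp26b1, which degrades retinoic acid in the distal limb, had 2 DFL-specific and 0 PFL-specific regions, at 8.76 and 8.80 in DFL in the stronger.

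Skeletal regulators were divided. The cartilage and bone regulators had 30 DFL-specific and 37 PFL-specific regions among 298, which turned to 12 and 7 in the shorter lists and stood at 29 and 30 among 296 in 542. Sox9, which directs cartilage formation, had 8 and 11, and its strongest specific region was PFL-specific, with 10.1 and 8.29 in PFL against 4.25 and 3.68 in DFL. Foxc1 had 0 and 4. In 542, 5 and 4 of the Sox9 regions and 0 and 2 of the Foxc1 regions held their pattern. The regulators of joint, tendon and connective tissue had 42 DFL-specific (14.6%) and 26 PFL-specific regions (9.03%) among 288, and kept this direction at 20 to 12 within 100 kb, 12 to 8 in the shorter lists, and 34 to 28 among 275 in 542. In this group the transcription factor genes Dach1 had 11 and 4, Tcf7l2 had 10 and 1, and Osr1 had 5 and 6. Of these, 7 and 1, 5 and 0, and 3 and 2 held their pattern in 542. The strongest specific region of Osr1, on chr12:9430484-9431455, was open in DFL, with 10.1 and 10.5 in DFL, no call in PFL replicate 1 and 3.77 in PFL replicate 2. The pan-limb mesenchyme factors had 8 and 7 among 100, near the shares of all regions, with 7 and 7 within 100 kb, 6 and 3 in the shorter lists, and 8 and 12 in 542.

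Markers of other cell types also differed. The skeletal muscle markers had 3 DFL-specific (3.33%) and 16 PFL-specific regions (17.8%) among 90, a direction kept at 10 to 20 within 100 kb and at 4 to 13 among 87 in 542, and tied at 2 and 2 in the shorter lists. Of the 18 genes, 10 had a PFL-specific region and 8 of these had no DFL-specific one. In 542, 10 of the 16 regions held their pattern, none of them was in both forebrain lists, and 8 of them held the E-box CAGCTG. Myod1 had 0 DFL-specific and 3 PFL-specific regions, all with the same pattern in 542. The strongest, on chr7:46316704-46317530, had 6.94 and 6.98 in PFL and 9.54 and 7.65 in 542 PFL, against 2.78 in wt DFL replicate 1 and no call in DFL replicate 2. The PFL-specific region nearest Met, a receptor that muscle precursors need for migration, had 7.61 and 7.76 in PFL against 3.66 and 4.38 in DFL. Met also had 1 of the 3 DFL-specific regions of this list, and the others were nearest to Chrna1 and Cdh15. The strongest region nearest Pax3 had 7.02 and 8.03 in PFL against 3.81 and 4.03 in DFL, and that nearest Myf5 had 6.60 and 6.64 against 3.22 and 4.55.

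The markers of muscle thus moved with the PFL-specific regions, and their part in the other PFL-specific results was not tested. The 16 regions are only those nearest to the 18 listed genes, and do not measure how many of the 5939 come from muscle cells. The neural crest and Schwann cell markers had 1 DFL-specific and 5 PFL-specific regions among 35, with 2 and 3 within 100 kb, 1 and 2 in the shorter lists, and 2 and 4 in 542. A PFL-specific region nearest Foxd3, a neural crest gene, had 7.04 and 5.88 in PFL and no call in either DFL library. Blood markers had 5 of each among 66, all nearest to Ptprc, and 5 and 9 among 65 in 542. Endothelial markers had 9 of each among 82, and 10 and 9 among 81 in 542. Ectoderm markers had 9 and 4 among 79, which turned to 0 and 1 in the shorter lists and stood at 5 and 5 in 542. Forebrain markers had 12 DFL-specific and 1 PFL-specific regions among 65, with 15 and 2 within 100 kb, 0 and 3 in the shorter lists, and 6 and 2 among 50 in 542. Of these 12, 3 were in both forebrain lists and 6 in neither, and 3 held their pattern in 542, where those on chromosome 2 beyond the limit could not be compared. Pax6, an eye and forebrain gene, was nearest to 3 of them, and the strongest had 6.89 and 7.58 in DFL and no call in PFL or forebrain.

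**Figure D5:**
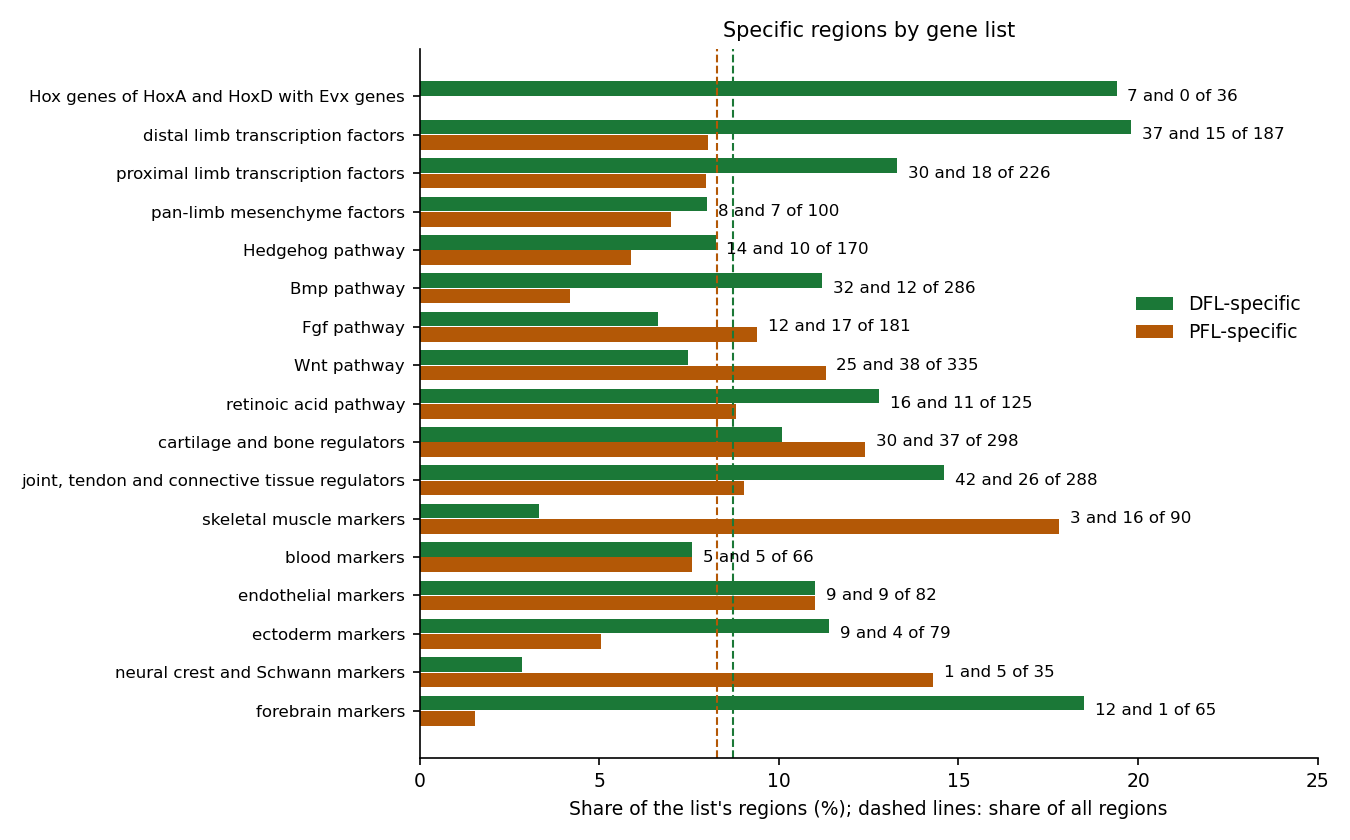
Share of the regions nearest to the genes of each list (x axis, %) that were DFL-specific (green) or PFL-specific (brown), with the counts of both and of all regions of the list. Dashed lines mark the shares of all regions, 8.71% and 8.28%, and the longest bars are 19.8% for DFL at the distal transcription factors and 17.8% for PFL at the skeletal muscle markers.

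In the chart of lists a gene with many regions weighs more than a gene with few, and some genes stand in more than 1 list. The bars hold for lists of 50000 regions in wt libraries, and the directions that turned under the alternatives or in 542 are named with each list above.

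Counted by gene, 5202 of the 15615 protein-coding genes nearest to any region were nearest to at least 1 specific region. Of the 5202, 1727 had DFL-specific regions without PFL-specific ones, 1765 the converse, and 1710 had both. The order that follows is by count, not by share. The genes with the most DFL-specific regions were Tenm3 with 17 of 82, Adgrl2 with 16 of 84, and Cdh8, Zeb2 and Flrt2 with 15 each, of 42, 59 and 64. These encode the adhesion proteins teneurin-3, latrophilin-2 and cadherin-8, a zinc finger repressor, and FLRT2. Next were Adgrl3 with 14 of 69, Rps29 and Pik3c3 with 12 of 28 and 54, and Dach1 and Khdrbs3 with 11 of 47 and 30. For PFL-specific regions Robo1, the receptor of the guidance protein Slit, and Tenm3 led with 15 of 80 and of 82, before Adgrl2 with 12 of 84, and Ttll7, Sox9, Dmac1 and Galc with 11 each, of 41, 42, 65 and 43. Trps1, a zinc finger regulator of cartilage, and Epha7, an ephrin receptor gene, had 10 of 45 and 46, and Pcdh17 had 9 of 29. Tenm3 and Adgrl2 were thus in both sets. The farthest specific region reached 1967.1 kb from the start of Tenm3 and 2209.2 kb from that of Pik3c3.

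At least 5 DFL-specific and no PFL-specific regions were nearest to 23 genes, led by Gli3 with 10 of 44 and Tfap2b with 8 of 19, followed by Fam19a2, Kcna4, Olfm3 and Sulf1 with 7. Sulf1 encodes a sulfatase that trims heparan sulfate, and 5 of its 7 regions held their pattern in 542. The converse held for 15 genes, led by Ubash3b with 7 and by Aga, Habp2, Phf3 and Rgmb with 6. How many such genes the shares over all regions would give was not worked out, so the counts of 23 and 15 stand without a background. Rgmb encodes a Bmp co-receptor. Its PFL-specific regions had mean folds of 6.43 to 9.70 in PFL, and none of the 6 met the full pattern in 542. Trps1 and Rgmb were also among the common regions of largest difference, given below.

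Specific regions at coding starts were looked at after their values were seen. Of 60 DFL-specific starts compared, 17 (28.3%) held their pattern, and of 135 PFL-specific starts 24 (17.8%), where over all specific regions the shares were 45.2% and 38.1%. The genes described first were chosen from those that held, after their values were seen, and do not stand for all of them. In DFL they included the start of Mme, a membrane peptidase, with 5.39 and 4.94 in DFL, 3.43 in PFL replicate 1 and no call in PFL replicate 2, and that of Sp8, a zinc finger gene of the limb ectoderm, with 3.57 and 4.76. The start of Hand2 had 3.91 and 3.19 in DFL, 2.80 in PFL replicate 1 and no call in PFL replicate 2. In PFL the start of Trim55, a sarcomere protein, had 9.60 and 6.97 in PFL, 3.06 in DFL replicate 1 and no call in DFL replicate 2. The start of Myog, which drives muscle differentiation, had 5.64 and 7.23 in PFL, no call in DFL replicate 1 and 2.60 in DFL replicate 2. The start of Mybpc1, a slow muscle protein, had 5.24 and 5.34 against 3.71 and 4.17, and that of the cartilage collagen gene Col9a1 had 6.75 and 6.16 against 3.81 and 2.45. The start of Des, which encodes a muscle filament, had 6.63 and 5.59 in PFL, 4.54 in DFL replicate 1 and no call in DFL replicate 2, and did not hold its pattern in 542. Other starts that held were those of Gzmk and B3galt5 in DFL, at mean folds of 8.12 and 7.96. In PFL those of Plpp7 and Olfr970 also held, at 8.41 and 6.8. The start of Myh15, a myosin heavy chain gene, was DFL-specific and held, with 5.86 and 6.47 in DFL and no call in PFL.

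The 31838 common regions were open in both tissues, and their folds were compared with limma on the log2 scale after median centring, with Benjamini-Hochberg adjustment over all of them. Higher in DFL were 185 regions (0.581%) and higher in PFL were 184 (0.578%), at an adjusted p under 0.05. The differences were of 1.39 to 2.59 times for DFL and 1.21 to 2.98 times for PFL, with medians of 1.86 and 1.84. Few lay at coding starts, 6 of those higher in DFL and 10 of those higher in PFL. Of the regions in all 542 limb lists, 122 of 127 and 95 of 99 differed in the same direction in 542, and 37 and 18 passed the same limma test there. The corresponding shares over all common regions are not given here, so these counts stand without a background. With the tags recovered from the folds in place of the folds, limma called 2363 and 1164 regions, so that the share towards DFL changed, and 2107 and 1862 after median centring. With DFL replicate 1 or 2 left out, limma called none higher in DFL (2103 and 1780 at an unadjusted p under 0.05). Over all libraries left out in turn, 0 to 65 were called higher in DFL and 0 to 21 higher in PFL.

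The region that differed most towards DFL lay upstream of Trps1 on chr15:51038673-51039466. Its folds were 17.3 and 17.9 in DFL against 6.43 and 6.48 in PFL, a log2 difference of 1.37 (SE 0.129, limma adjusted p = 0.0075). A region upstream of Tjp1, a tight junction gene, had 16.6 and 15.3 in DFL against 6.76 and 5.28 in PFL (log2 difference 1.34, limma adjusted p = 0.0104), and an intronic one nearest Otub1, a deubiquitinase gene, had 12.1 and 12.9 against 4.86 and 4.55 (log2 difference 1.34, limma adjusted p = 0.0147). Next were the regions nearest S1pr1, a sphingosine phosphate receptor gene, and Eya4, a transcriptional co-activator gene, at log2 differences of 1.23 and 1.21. The Eya4 region differed by 1.24 in 542, and the Trps1 region by 0.64.

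Towards PFL the largest difference was nearest Nsun3, an RNA methyltransferase gene, on chr16:62652849-62653672. Its folds were 4.08 and 3.94 in DFL against 11.5 and 11.1 in PFL, a log2 difference of -1.57 (SE 0.175, limma adjusted p = 0.0097). A region upstream of Rgmb had 5.27 and 5.25 against 14.9 and 12.6 (log2 difference -1.46, limma adjusted p = 0.0097), and differed by -1.17 in 542. The regions nearest Cemip2, Hey2, a Notch target, and Slc7a11 differed by -1.40, -1.31 and -1.29. None of these 10 regions passed the threshold when either DFL library was left out.

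Some genes of the lists were among the common regions that passed, and like the 10 regions above they lost the threshold when either DFL library was left out. At the start of Hoxd13 the folds were 9.78 and 9.55 in DFL against 4.18 and 4.97 in PFL, a log2 difference of 1.01 (limma adjusted p = 0.0346). Without PFL replicate 1 or 2 its limma adjusted p was 0.112 and 0.0601. A Gdf6 region had 14.5 and 12.54 in DFL against 5.42 and 6.31 in PFL, a difference of 1.13 (limma adjusted p = 0.0252). Regions nearest Twist1, a mesenchyme factor, Ptch1, the Hedgehog receptor, and Sox9 were also higher in DFL, by 1.03, 0.93 and 0.87 on the log2 scale, and that of the Fgf target Dusp6 by 0.85. Higher in PFL were regions nearest Rarb, by a difference of -1.12, the blood cell gene Ptprc, by -1.06, Spry2, by -1.04, and Gli3, by -0.76. The Gli3 region, in which the folds were 6.87 and 6.73 in DFL against 10.6 and 11.3 in PFL, thus went against the 10 DFL-specific regions of that gene. Hhip, a Hedgehog antagonist, had a region in each direction, at 0.88 and -0.89. The second of these had a limma adjusted p of 0.0536 after quantile normalization between libraries.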

How the data were processed

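Peaks had been called by the authors per library, with no control sample. Per the study's methods and processing notes, adapters were trimmed with cutadapt, read pairs were mapped with Bowtie to mm10 (542 to a mutant genome), duplicates were removed with Picard, read ends were converted with bedtools, and MACS2 was run with each tag extended so that it is centred on the Tn5 cut and with summits listed separately. The deposited fold is a ratio of tags under the summit to local background, MACS2 also gave the deposited −log10 p-value, the deposited −log10 q-value by which regions were ranked, and the deposited score, which was not used. No value is normalized between libraries, so lists of equal length were compared.

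Summits of equal start and end were taken as 1 region with its strongest summit. Regions were assigned to the nearest protein-coding start in GENCODE M21, and sequences were read from GRCm38. Folds of common regions were log2-transformed, median-centred per library and compared with limma 3.58.1 (R 4.3.3, trended eBayes, threshold 0.05), since the files hold no count table. Tags were recovered as whole numbers within a tolerance of 0.001 for 97.3% to 97.8% of summits. On simulated data for this comparison (31838 regions), 83% of 100 changes of 1 on the log2 scale were called. Of 100 changes of 1.5, 98% were called, with 12 calls among unchanged regions. Whether these shares hold for the libraries themselves was not tested. Other steps used Python 3.11.15 with numpy 2.4.6, pandas 2.3.3 and scipy 1.17.1.

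Named were, per direction, the 10 regions of highest mean fold, the 10 genes with most regions, up to 4 genes per list with most regions, the 5 common regions of largest difference, and regions of Hoxa13, Hoxd13, Evx2, Meis1, Meis2, Shox2, Lnpk and II1. Other names, among them the members of lists given by count alone and the listed genes among common regions, were chosen after their values were seen. The members and the 17 gene lists were chosen with earlier results of these data known. II1 was placed by its amplification primers. The 542 forebrain libraries were not used here. Alternatives were other list lengths, rankings and windows, other scalings, recovered tags and libraries left out.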

Additional observations from a re-analysis of the deposited data

Results flagged for a closer look

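A small number of regions were specific to one tissue in wt and to the other in 542, counted without chromosome 2 from 75 Mb. Of 5945 DFL-specific regions in wt, 38 were in both 542 PFL lists and in neither 542 DFL list. The strongest lay in an intron nearest Slc39a8, a metal transporter gene, on chr3:135937244-135937992, with folds of 6.74 and 9.79 in wt DFL and of 5.15 and 4.79 in 542 PFL. A region upstream of Hmga2, which encodes a chromatin protein of embryonic tissue, had 6.89 and 7.35 in wt DFL and 5.54 and 5.99 in 542 PFL. Of 5692 PFL-specific regions in wt, 31 showed the converse. The strongest was in an intron nearest Fgf12, with 7.08 and 6.91 in wt PFL and 5.16 and 5.29 in 542 DFL. Another, nearest Sox9, on chr11:113188162-113188801, had 4.56 and 5.82 in wt PFL and 5.04 and 5.74 in 542 DFL. Each of these regions was in the lists of opposite tissues in wt and in 542. This is presence among the strongest regions, and absence from a list does not mean a lower fold. The difference between the genotypes was not tested. The counts are 0.639% and 0.545% of the regions compared. Of all regions, 7.66% were in the 542 lists of PFL only and 8.03% in those of DFL only.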

How the results depend on the processing

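The number of DFL-specific and PFL-specific regions depended on the length of the lists. It was 1854 and 1645 among the 20000 strongest regions, 13661 and 13935 with all deposited regions, and 1690 and 1381 when a region of any rank in the other tissue counted as present. Without replicate 1 or 2 of each tissue it ran from 12994 to 13302 for DFL and from 12951 to 13426 for PFL, since fewer lists had to hold or lack a region. A fold of at least 5, ranking by fold, 500 bp windows and the additional wt DFL library left it within 1.5 times. All 10 strongest regions per direction remained specific among the 20000 strongest, while with all deposited regions 0 for DFL and 2 for PFL did. The differences between 542 tissues kept their direction under every alternative run, at 51.87 to 57.29 points for DFL-specific and 39.93 to 52.11 points for PFL-specific regions. The common regions called by limma, higher in DFL and in PFL, numbered 27 and 17 with normal scores of ranks, 1976 and 1726 with all deposited regions, and 2363 and 1164 with recovered tags. With recovered tags after median centring, an alternative chosen after seeing the data like the omission of single libraries, they numbered 2107 and 1862. Leaving out 1 library gave 0 to 65 and 0 to 21. Without DFL replicate 1 there were 0 and 2, and without DFL replicate 2 there were 0 and 0, where 1780 and 2158 regions had an unadjusted p under 0.05 and a lone library is assumed to vary like the other group. The cause of these changes was not tested. The fit with the replicate number as a block called 159 and 142 regions. The deviations of equal numbers did not go together (r = 0.002 across regions, which are not independent). With so few libraries this cannot decide whether equal numbers share embryos, and the labels do not say. A limma fit without replicate 1 or 2 in both tissues leaves 1 library each and was not run. The shares within 1 kb of a coding start were 3.45% of DFL-specific, 6.38% of PFL-specific and 60.2% of common regions among the 20000 strongest, and 3.15%, 5.04% and 37.5% with the starts of all annotated genes. The estimated totals were 44.0 to 54.5 M tags and the regions called 102218 to 115512 per library, and the effect of depth on the weak regions was not tested.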
